A study of Mus musculus with 72 samples.

Results

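The sites described here were p300 peaks of mouse embryonic fibroblasts (MEFs) that overlapped no peak of acetylated lysine 27 of histone H3 (H3K27ac). Of 7323 p300 peaks in wild-type (WT) replicate 1, 4155 overlapped a p300 peak of WT replicate 2 by 1 bp or more. Of these, 930 (22.4%) overlapped no H3K27ac peak of either WT library and are called the non-overlapping sites, while the remaining 3225 are called the overlapping sites. The sites were thus chosen by the WT p300 and WT H3K27ac peaks, and their p300 and H3K27ac values are given as a description only.

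The series holds peak lists from chromatin immunoprecipitation with sequencing (ChIP-seq) of WT (Hmgn1+/+n2+/+) and double knockout (DKO, Hmgn1-/- n2-/-) cells of strain C57BL/6, with 2 replicates per genotype for each of 16 antibodies. The MEF lists were made with 6 antibodies, against p300, H3K27ac, H3K27me3, histone H1, Brd3 and CEBPB. Lists from 5 antibodies in embryonic stem cells (ESCs) and 5 in splenic resting B cells served for comparison. The DKO cells lacked both HMGN1 and HMGN2, nucleosome-binding proteins, and no group lacked 1 of them alone. The study calls the ChIP replicates biological. The ages of the embryos, and whether replicates came from separate embryos or cultures, were not given in the sources used here. The p-values thus measure the spread between these libraries, which limma shares in part or whole across the antibodies or sites fitted together.

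The MEF lists differed widely in length between genotypes. The 4 p300 lists held 7323 and 5398 peaks in WT and 2974 and 3325 in DKO, the Brd3 lists 31404 and 33072 against 8970 and 11549, and the CEBPB lists 14197 and 14692 against 4886 and 5328. The H3K27ac lists held 84850, 84760, 76968 and 77614 peaks. H3K27ac peaks lay at the promoters of 13 to 14 of 14 fibroblast marker genes in the 4 libraries (Lum was missed in WT replicate 2), and at 0 of 7 stem cell, 0 of 5 B cell, 0 of 4 epithelial and 0 of 3 muscle markers. Of 4 macrophage genes, 2 had a promoter peak in each library, with Emr1 and Lyz2 lacking it, 1 of 3 annotated neural genes had one in each library, and of 4 endothelial genes Kdr had one in DKO replicate 1 only. Over Hmgn2 the WT libraries each had 3 H3K27ac peaks and the DKO libraries 0, and over Hmgn1 the 4 libraries had 2, 2, 4 and 5, which checks no label because the deleted segments were not given in the sources used here.

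p300 is an acetyltransferase that has no sequence specificity of its own and is brought to enhancers and promoters by transcription factors. It places H3K27ac on nearby nucleosomes, and bromodomain proteins such as Brd3 bind acetylated histones. CEBPB is a leucine zipper factor that reads its own DNA motif. The nucleosomes on which acetylation is measured flank the stretch of DNA held by the factors, and H3K27me3 is the mark of Polycomb-silenced chromatin.

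The data went partly against a reading of these sites as chromatin without H3K27ac. Of the 930 non-overlapping sites, 730 (78.5%) lay within 1000 bp of a WT H3K27ac peak and are called near sites, and 200 (21.5%) lay farther away and are called isolated sites. As many as 543 sites (58.4%) were within 100 bp of an H3K27ac peak. H3K27ac lay on both sides within 1000 bp at 471 sites (50.6%) and on 1 side at 259. The gaps between H3K27ac regions that held a site had a median width of 360 bp (quartiles 295 and 467.5 bp). The rule requires a gap wider than the p300 peak it holds, whose median width was 200 bp, so these widths are a description and are not compared with other gaps.

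The sequences around the p300 summit are shown for 7 near sites and 1 isolated site. The 8 windows below were 101 bases long, were centred on the summit in WT replicate 1, and follow mm9 (NCBIM37) from 5′ to 3′. Capitals mark matches, on either strand, to the motifs of AP-1 (TGACTCA), CEBP (TTGCNNAA), TEAD (GGAATG) and RUNX (TGTGGT), none of which overlapped another here. Rfc3 and P2ry12 name sites whose p300 peak was absent from both DKO lists, and Rfc3 combined 3 kinds of motif.
Rfc3, chr5:152507935-152508035, + strand: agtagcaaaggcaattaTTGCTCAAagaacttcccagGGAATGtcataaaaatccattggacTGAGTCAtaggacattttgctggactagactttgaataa
P2ry12, chr3:59094585-59094685, + strand: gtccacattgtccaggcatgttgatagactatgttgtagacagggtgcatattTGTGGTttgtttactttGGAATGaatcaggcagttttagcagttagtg
The Otud1 site also carried a CTCF peak in ESCs, and Nr2f2 and Tsc22d2 were among the 6 strongest p300 sites, the latter with none of the 4 motifs in its window.
Otud1, chr2:19604837-19604937, + strand: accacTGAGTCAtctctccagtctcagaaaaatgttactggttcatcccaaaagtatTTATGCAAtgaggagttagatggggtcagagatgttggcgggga
Nr2f2, chr7:77412004-77412104, + strand: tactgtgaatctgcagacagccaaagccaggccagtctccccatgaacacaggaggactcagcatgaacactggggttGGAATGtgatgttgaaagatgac
Tsc22d2, chr3:58115374-58115474, + strand: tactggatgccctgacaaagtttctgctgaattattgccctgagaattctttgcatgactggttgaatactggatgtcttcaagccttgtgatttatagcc
The Hes1 site, 24 bp from a WT H3K27ac peak, overlapped an H3K27ac peak in both DKO lists. The Cryl1 site carried Brd3 in both WT lists, and the Cdh18 site was isolated from H3K27ac.
Hes1, chr16:30111787-30111887, + strand: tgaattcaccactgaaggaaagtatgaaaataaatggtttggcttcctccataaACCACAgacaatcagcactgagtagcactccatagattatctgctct
Cryl1, chr14:57916700-57916800, + strand: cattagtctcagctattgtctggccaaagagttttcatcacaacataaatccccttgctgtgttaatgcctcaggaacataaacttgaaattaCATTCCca
Cdh18, chr15:23382057-23382157, + strand: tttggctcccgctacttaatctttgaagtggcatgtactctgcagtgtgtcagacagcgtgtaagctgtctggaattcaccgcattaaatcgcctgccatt

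H3K27ac flanked the near sites in WT, as the definition of a near site requires. H3K27ac peaks covered 0% of p300 summits by the rule that chose the sites, and rose to 62.2% of near sites in WT replicate 1 at 360 bp from the summit and to 59.6% in WT replicate 2 at 340 bp. Overlapping sites showed a valley too, with H3K27ac at 38.6% and 36.6% of summits and at 90.1% and 88.5% of positions 300 bp upstream. The summit lay outside H3K27ac at 1690 of the 3225 overlapping sites (52.4%), whose median overlap with H3K27ac was 160 bp. The flanks of near sites had lower H3K27ac than those of overlapping sites. At the 521 near sites with a peak within 1000 bp in all 4 libraries, the median fold enrichment of the strongest was 6.88 and 6.86 in WT and 7.09 and 7.01 in DKO. The same medians at 3093 overlapping sites were 12.0, 11.8, 11.6 and 11.5.

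**Figure D1:**
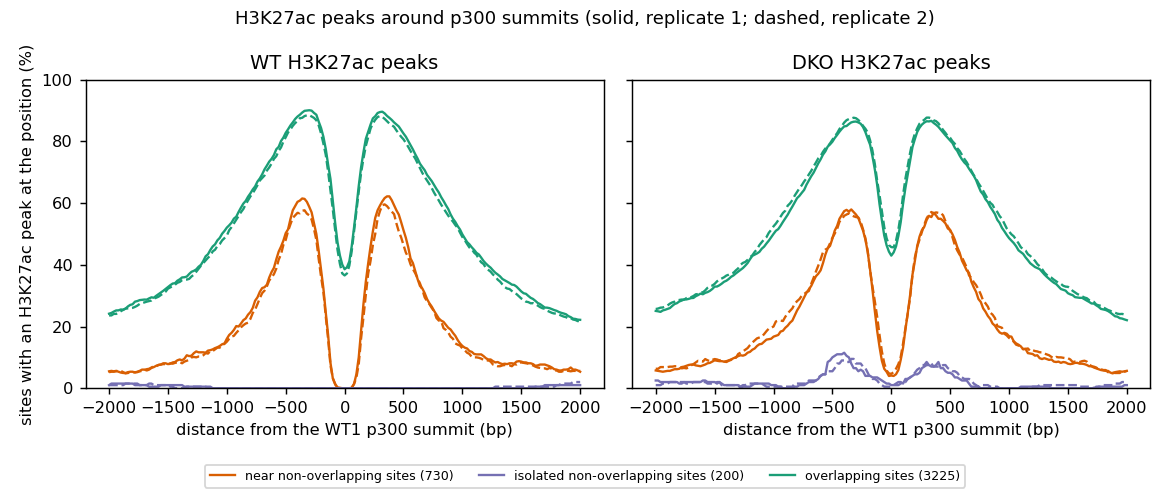
Percent of sites (y axis) with an H3K27ac peak at each distance in bp from the WT replicate 1 p300 summit (x axis), for near, isolated and overlapping sites, with WT lists on the left and DKO lists on the right and a line per replicate. Near sites fall to 0% at the summit in WT and to 4.11% and 4.66% in DKO, while overlapping sites keep 36.6% or more in each library.

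p300 peaks at the non-overlapping sites were weaker than at the overlapping ones in the lists that chose them. Their median fold enrichment was 6.46 in WT replicate 1 and 6.47 in WT replicate 2, against 7.37 and 7.18 at overlapping sites. Their median width was 200 bp against 263 bp, a difference the rule favours, since a wider peak meets an H3K27ac peak more readily. The median of the 2 WT −log10 q values was 9.29 against 11.9. Just inside the rule, the 212 sites lying 1 to 25 bp from H3K27ac had a median WT replicate 1 fold enrichment of 6.55. Just outside it, the 264 sites with 1 to 25 bp of overlap had 6.64.

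Fewer non-overlapping than overlapping sites had a p300 peak in DKO. DKO replicate 1 called p300 at 376 of the 930 sites (40.4%, 95% Wilson interval 37.3 to 43.6) and DKO replicate 2 at 410 (44.1%, 40.9 to 47.3). These shares read against 51.9% and 56.0% of all 4155 sites and against 55.3% and 59.4% of the overlapping sites. Both DKO lists called 264 sites and neither called 408 (43.9%), against 33.7% of all 4155 sites called by neither. Isolated sites were called at 32.0% and 38.5% and near sites at 42.7% and 45.6%. At the edge of the rule, sites 1 to 25 bp from H3K27ac were set against sites with 1 to 25 bp of overlap. The order turned in DKO replicate 1 (52.8% against 44.3%) and was kept in DKO replicate 2 (47.6% against 49.2%). The rule used the WT p300 peaks and not the DKO ones, which favours loss over gain in both classes, and the shares are given with no test. Intervals cover counting error only, and read depth is unknown.

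**Figure D2:**
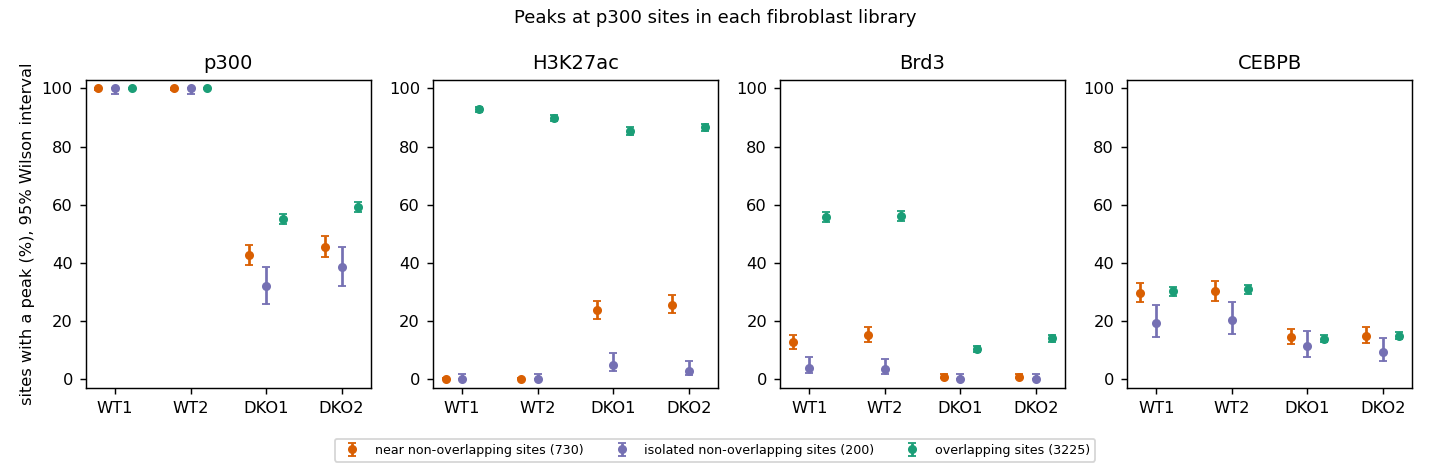
Percent of near, isolated and overlapping sites (y axis, with 95% Wilson intervals) that carried a p300, H3K27ac, Brd3 or CEBPB peak in each of the 4 MEF libraries (x axis). Brd3 separates the classes, with 55.9% and 56.1% of overlapping sites called in WT against 12.7% and 15.3% of near sites, while CEBPB differs little between near and overlapping sites.

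WT p300 strength ordered the sites that p300 kept in DKO, in both classes. All 4155 sites were cut into 5 equal classes by the mean −log10 q of the 2 WT peaks. Among the 262 non-overlapping sites of the weakest class, 25.2% and 19.1% had a p300 peak in the 2 DKO libraries. Among the 71 of the strongest class, 88.7% and 94.4% did. Overlapping sites ran from 22.8% and 27.4% in the weakest to 92.9% and 94.0% in the strongest class. With overlapping sites weighted to the strengths of the non-overlapping sites, their DKO shares were 43.3% and 47.9% against 40.4% and 44.1%, a narrower gap between the classes.

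**Figure D3:**
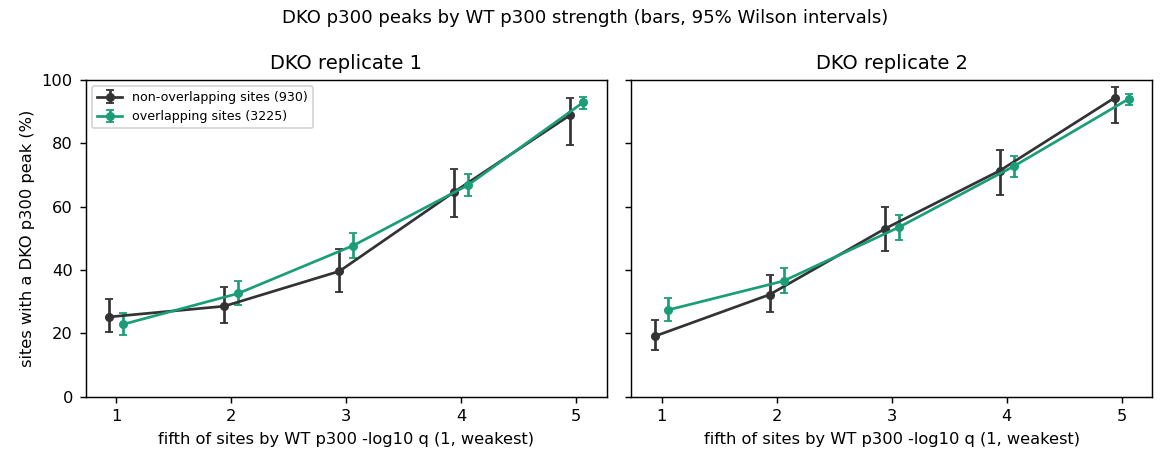
Percent of sites with a DKO p300 peak (y axis) in 5 equal classes of WT p300 strength (x axis, 1 is weakest), for non-overlapping and overlapping sites, a panel per DKO replicate and bars for 95% Wilson intervals. Both classes rise, the non-overlapping sites from 25.2% and 19.1% to 88.7% and 94.4%.

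The strongest sites kept p300 in all 4 libraries. The strongest lay 104013 bp from the start of Tsc22d2, a TSC22-family transcriptional regulator (chr3:58115216-58115598, intergenic), with p300 fold enrichments of 25.04 and 19.8 in WT and 14.5 and 20.6 in DKO. Its WT and DKO values overlapped. The next lay 1645194 bp from the start of Cntnap5a (a contactin-associated neuronal protein, chr1:115935811-115936294, intergenic), with 22.6, 18.2, 10.49 and 15.6. The third was in an intron of Mdga2 (a membrane-anchored adhesion protein, chr12:67835564-67835900), with 14.9, 21.4, 15.5 and 14.5. Cntnap5a was higher in both WT libraries, and Mdga2 overlapped between genotypes. The ranking used the WT p300 peaks alone, which favours higher values in WT, so these comparisons are a description only.

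The other strong sites, also ranked by their WT p300 peaks alone, read lower in DKO without loss of the peak. Nr2f2 encodes an orphan nuclear receptor of mesenchyme. The site 93425 bp from its start (chr7:77411949-77412323, intergenic) read 17.0 and 18.1 in WT and 8.502 and 10.3 in DKO. Epha7, an ephrin receptor, was the nearest start, 1043457 bp away, of an intergenic site (chr4:29783767-29784044) at 10.9, 16.7, 8.66 and 8.37. Alcam, an immunoglobulin-type cell adhesion molecule, had an intronic site (chr16:52438440-52438696) at 13.8, 15.6, 9.97 and 10.48. In each of these 3 the lower WT value lay above the higher DKO value. Ranking by WT strength favours this order, so it cannot show a difference between genotypes at these sites.

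Strong WT p300 did not always go with a DKO peak. Among the 408 sites called in neither DKO list, the strongest lay in an intron of Med12l, a Mediator subunit, with P2ry12, a receptor for ADP, as the nearest start (chr3:59094528-59094797). It read 11.3 and 6.92 in WT. The intergenic site nearest Rfc3, a subunit of the clamp loader of DNA replication (chr5:152507884-152508077), read 10.1 and 11.1, and that nearest the odorant receptor gene Olfr455 (chr6:42512484-42512708) read 9.08 and 9.92. CEBPB peaks stayed at P2ry12 and Rfc3 in both DKO lists, and at Olfr455 both CEBPB calls were WT ones.

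**Figure D4:**
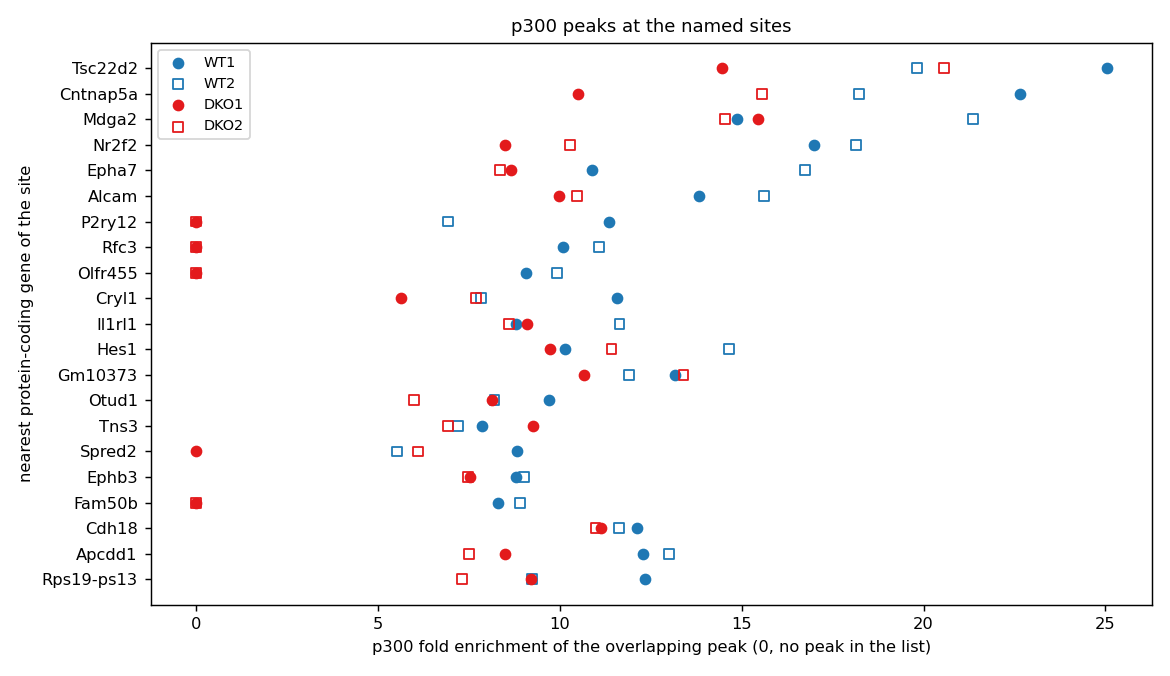
p300 fold enrichment (x axis) of the peak at each named site in WT replicates 1 and 2 and DKO replicates 1 and 2, with the nearest protein-coding gene on the y axis and 0 where a list held no peak. P2ry12, Rfc3, Olfr455 and Fam50b stand at 0 in both DKO libraries, and Tsc22d2 reaches 25.04 in WT replicate 1.

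H3K27ac appeared at a fraction of the sites in DKO. DKO replicate 1 called H3K27ac at 183 of the 930 sites (19.7%) and DKO replicate 2 at 194 (20.9%), with 106 sites (11.4%) called in both, where 65.7% of all 4155 p300 sites were. The rule fixed the WT count at 0, which leaves room only for gains, so the direction is a product of the choice. The gains lay near existing H3K27ac, at 23.7% and 25.8% of near sites and at 5.0% and 3.0% of isolated sites. Sites within 25 bp of a WT peak were called at 39.2% and 42.9%. The peaks covered the p300 summit itself at 4.11% and 4.66% of near sites.

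The DKO H3K27ac peaks at single sites were not all weak. Hes1, a repressor that answers Notch signaling, had an intergenic site 46411 bp away (chr16:30111735-30112092) with H3K27ac fold enrichments of 16.0 and 16.0 in DKO, and p300 at 10.1, 14.7, 9.73 and 11.4. The Tsc22d2 site had 15.5 and 15.7, and an intronic site of the predicted gene Gm10373 (chr15:43269591-43269936) had 6.04 and 11.9. The nearest WT H3K27ac peak was 24 bp from the Hes1 site, 49 bp from that of Tsc22d2 and 14 bp from that of Gm10373. The DKO fold enrichments belong to the whole peak that touched the site, not to the site alone. Sites with H3K27ac in both DKO lists kept p300 at 55.7% and 63.2%, against 35.8% and 38.7% of the 659 sites with H3K27ac in neither. Of the 106 sites with both, 104 were near sites, and the part of WT p300 strength in this difference was not tested.

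Brd3 was called at far fewer non-overlapping than overlapping sites in WT. Brd3 peaks lay at 101 and 119 of the 930 sites in WT (10.9% and 12.8%), against 55.9% and 56.1% of overlapping sites. With overlapping sites weighted to the same p300 strengths the shares were still 50.2% and 50.8%. Both WT lists called 55 sites (5.91%), against 36.2% of all 4155 p300 sites. Among isolated sites Brd3 was at 4.0% and 3.5%. Sites just inside the rule had 21.7% in each WT library, against 28.4% and 28.03% just outside it, which lay closer together than the shares of the whole classes.

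In DKO, Brd3 peaks lay at 6 and 7 of the 930 sites (0.645% and 0.753%), 9 sites in all. Of the 55 sites called in both WT lists, 6 were called in a DKO list and 49 in neither (5.27% of the 930, against 23.4% of all 4155 p300 sites). On the log2 scale of sites called plus 0.5, the count fell by 3.98 (SE 0.13, limma, Benjamini-Hochberg adjusted p = 0.00012 over 3 antibodies with a mean of at least 10 sites called). The 2 DKO counts lay far below the 2 WT counts. At isolated sites 8 and 7 WT calls became 0 and 0, and a count of 0 allows up to 1.5% of the 200 sites.

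Over the whole classes the Brd3 fall was larger at non-overlapping than at overlapping sites, while at the edge of the rule both classes fell to low shares, with no test of their difference. Sites 1 to 25 bp from H3K27ac went from 21.7% in each WT library to 1.42% in each DKO library, and sites with 1 to 25 bp of overlap from 28.4% and 28.03% to 1.89% and 2.27%. For every 100 overlapping sites called, 5.60 and 6.58 non-overlapping sites were called in WT, and 1.80 and 1.53 in DKO. This ratio fell by 1.77 on the log2 scale (SE 0.14, limma adjusted p = 3.72e-05). The fit gave Brd3, CEBPB and NANOG the same SE, so this p rests on a spread shared over these 3 antibodies. The DKO mean was 5.91% of the WT mean at non-overlapping sites, 21.9% at overlapping sites and 31.8% over all Brd3 peaks. With the 8970 top peaks of each Brd3 list, a choice made after the data were seen, the counts were 24, 25, 6 and 6 and the ratio fell by 0.65 (adjusted p = 0.00418). Against only the overlapping sites with the summit outside H3K27ac, also a later choice, the ratio fell by 1.15 (adjusted p = 0.00182). Without DKO replicate 1 the ratio fell by 1.89 and without DKO replicate 2 by 1.65. Each of these fits has a single DKO library and no spread within DKO, so no p-value is given.

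Weak WT Brd3 peaks and the length of the lists moved with this result. The median Brd3 fold enrichment at called non-overlapping sites was 4.90 and 4.83 in WT, against 6.00 and 6.11 at overlapping sites. Counting only peaks with a −log10 q of at least 5, the ratio fell by 1.54 (limma adjusted p = 9.72e-05). The part of peak strength in the fall was not tested beyond this setting and the equal lists. Of the sites with Brd3 in both WT lists, the strongest in p300 were those of Tsc22d2 (Brd3 at 6.70 and 6.30), of an intron of Cryl1 (chr14:57916582-57916860, 8.13 and 5.18), and of an intron of Il1rl1, the receptor for interleukin 33 (chr1:40492841-40493093, 4.20 and 6.21). None of the 3 had a DKO Brd3 peak. p300 stayed at all 3 in both DKO lists, at 5.63 and 7.69 for Cryl1 and 9.09 and 8.61 for Il1rl1.

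Brd3 fold enrichment was tested over regions made by merging overlapping Brd3 peaks of the 4 libraries. Of these regions, 8 had a peak in all 4 libraries and touched a non-overlapping site, though the DKO peak need not touch it, as at Ephb3. Of the 8, 0 were called by limma in either direction, against 0.553% lower and 0.922% higher among 5422 sites. At an unadjusted p under 0.05 there were 2 of the 8 and 1031 of all 5422. Their median log2 difference was 0.16 after centring each library on its median, against 0.02 over all sites. Without centring it was −0.25 and 1 of the 8 was lower, with a median shift of −0.39 over all sites.

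CEBPB was called at similar shares of both p300 classes, and at fewer sites in DKO. CEBPB peaks lay at 256 and 262 of the 930 sites in WT (27.5% and 28.2%), and at 27.9% and 28.5% of overlapping sites weighted to the same p300 strengths. Both WT lists called 226 sites (24.3%), against 26.4% of all 4155. In DKO CEBPB was at 130 and 129 sites (14.0% and 13.9%), and 99 sites (10.6%) had it in both WT and neither DKO list, against 11.3% of all 4155. Isolated sites had 19.5% and 20.5% in WT and 11.5% and 9.5% in DKO.

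The count of sites with CEBPB fell by 0.997 on the log2 scale (SE 0.03, limma adjusted p = 0.00012). The direction depended on the length of the lists. With the 4886 top peaks of each CEBPB list the counts were 95, 98, 130 and 116, a log2 difference of 0.35 (adjusted p = 0.0083). Against overlapping sites the change was 0.08 (SE 0.14, adjusted p = 0.556), with 26.3 and 26.3 non-overlapping sites called per 100 overlapping sites in WT and 29.1 and 26.6 in DKO. Over all CEBPB peaks the DKO mean was 35.4% of the WT mean.

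CEBPB regions present in all 4 libraries differed in both directions. Of 116 CEBPB regions, merged in the same way, that were called in all 4 libraries and touched non-overlapping sites, 44 (37.9%) were higher and 16 (13.8%) lower in DKO relative to the median site, against 28.0% and 22.5% of all 4193 sites tested by limma. The median log2 difference was 0.25, against 0.06 over all sites. Without centring, which moves the median over all sites to −0.68, 9 were higher and 62 lower (186 and 2828 of all sites). Without DKO replicate 2, 26 were higher (699 of all sites), and without DKO replicate 1, 10 were lower (573 of all sites).

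Single sites differed in both directions relative to the median site. The intronic Gm10373 site, the strongest in CEBPB of those named, read 33.2 and 36.9 in WT and 9.92 and 11.3 in DKO (centred log2 difference −0.99, SE 0.16, limma adjusted p = 0.000153). The Rfc3 site, which lost its p300 peak, read 6.17, 6.45, 6.96 and 6.33 (0.81, SE 0.16, adjusted p = 0.000769). Its raw values overlapped between genotypes, and the rise is relative to the median site. The P2ry12 site, which also lost p300, read 17.6, 19.3, 10.54 and 10.6, a centred difference of −0.07 (adjusted p = 0.742). The Alcam site read 9.62, 10.6, 8.57 and 11.8 (0.73, SE 0.17, adjusted p = 0.00273), again with raw values that overlapped between genotypes and a rise only relative to the median site.

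p300 in DKO was compared between sites with and without CEBPB. Sites with CEBPB in both WT lists kept p300 at 44.2% and 47.3%, and sites with it in neither at 38.7% and 42.8%. Their median WT p300 −log10 q was 9.94 and 8.99, so p300 strength moved with CEBPB, and its part in the difference was not tested.

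H3K27me3 and histone H1 were called at few p300 sites of either class, from short lists in which a missing peak has little weight. H3K27me3 peaks lay at 0, 1, 0 and 0 of the 930 sites in lists of 553, 388, 213 and 117 peaks, where a count of 0 allows up to 0.323% of the sites, and at 0 of the 3225 overlapping sites in WT and DKO. Histone H1 was called at 1 site in each library, in lists of 281 to 315 peaks, and at 0 of the overlapping sites. That 1 site, on chromosome Y (chrY:2787127-2787432), was called in 35 of the 64 lists of the series. The single H3K27me3 call was at the same site.

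Factors profiled in other cells were rarely found at these fibroblast sites. NANOG, a pluripotency factor, was called in ESCs at 19 and 16 sites in WT and 18 and 20 in DKO, a log2 difference of 0.12 (SE 0.12, limma adjusted p = 0.39), against 5.09% to 6.45% of overlapping sites. CTCF, which anchors chromatin loops, was called in ESCs at 8, 8, 9 and 10 sites (0.860% to 1.07%), against 2.05% to 2.23% of overlapping sites. The strongest of the 7 with CTCF in both WT lists were 25198 bp from Otud1, a deubiquitinase (chr2:19604766-19604996), in an intron of Tns3, a tensin of focal adhesions (chr11:8351701-8351953), and 253170 bp from Spred2, an inhibitor of Ras signaling (chr11:19571092-19571299). Their p300 values were 9.70, 8.21, 8.14 and 6.00 for Otud1, 7.87, 7.20, 9.25 and 6.94 for Tns3, and 8.83 and 5.54 in WT and 6.11 in DKO replicate 2 alone for Spred2.

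AP-1, TEAD and RUNX motifs were frequent under both p300 classes. The AP-1 motif TGACTCA, the element of Jun and Fos dimers, lay within 100 bp of the summit at 374 sites (40.2%, Wilson interval 37.1 to 43.4), against 39.2% of overlapping sites, 3.90% of windows 5000 bp away and 2.63% of protein-coding starts. It was as frequent at isolated sites (38.5%). The median distance from summit to motif was 30 bp, and 43.6% of these motifs were within 25 bp. The motif of TEAD factors (GGAATG) was at 32.7% of sites and that of RUNX factors (TGTGGT) at 33.1%, with 12.0% and 14.5% in windows 5000 bp away. RUNX matches were at 37.5% of isolated sites (31.1 to 44.4) and 28.1% of overlapping sites (26.5 to 29.6).

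Motifs common at starts were compared with both backgrounds. SP/KLF (GGGCGG) was at 2.37% of sites, against 2.23% of windows 5000 bp away and 38.6% of protein-coding starts. ETS (CCGGAAG) was at 0.968%, against 0.566% and 8.61%, and NFY (CCAAT) at 23.1%, against 27.7% and 24.6%. The CTCF motif was at 0.43%, against 1.25% and 1.59%. The median GC content of the windows was 41.8% at non-overlapping and 45.3% at overlapping sites, where windows 5000 bp away had 42.8%.

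The CEBP motif (TTGCNNAA) was at 108 sites (11.6%), against 8.82% of windows 5000 bp away, 11.2% of overlapping sites and 7.0% of isolated sites. CEBPB was called at 57.4% and 59.3% of the sites with it in WT and at 31.5% and 28.7% in DKO, against 60.8% and 59.9% and 36.5% and 37.6% of overlapping sites with the motif. Sites without it had 23.6% and 24.1% in WT and 11.7% and 11.9% in DKO. p300 in DKO was at 38.0% and 48.1% of sites with the motif and at 40.8% and 43.6% of those without. For AP-1, p300 was at 42.5% and 43.9% of sites with it and at 39.0% and 44.2% of those without.

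**Figure D5:**
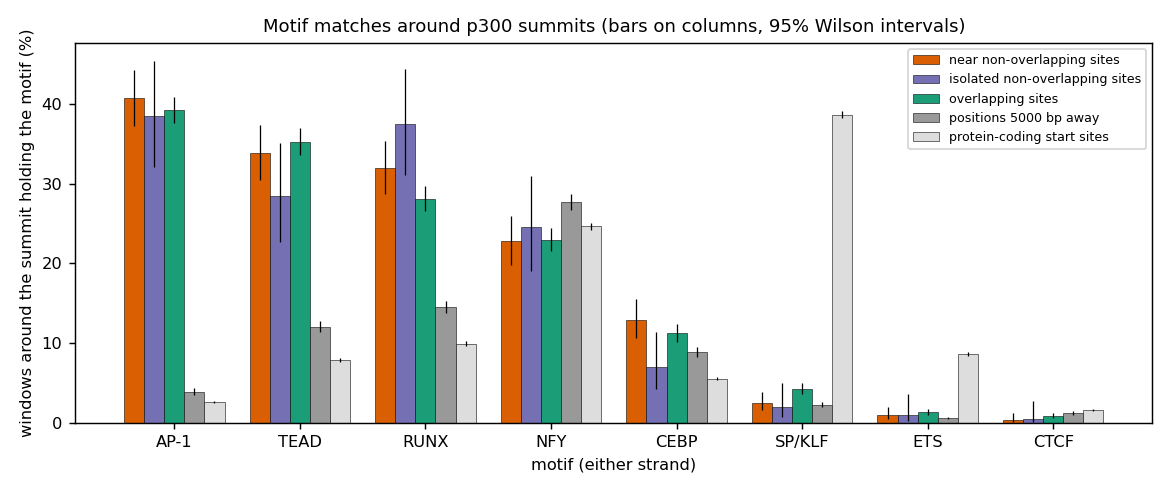
Percent of windows around the summit or start (y axis) that hold each of 8 motifs on either strand (x axis), for near, isolated and overlapping sites, windows 5000 bp away and protein-coding starts, with 95% Wilson intervals. AP-1, TEAD and RUNX stand above both backgrounds in all 3 classes of p300 sites, and SP/KLF is high only at starts, at 38.6%.

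Most sites lay far from the starts of genes. Of the 930, 630 (67.7%) were intergenic, 291 (31.3%) intronic, 3 in coding exons and 6 in untranslated exons. The median distance to a protein-coding start was 70586 bp, against 46431 bp at overlapping sites, and 391 (42.0%) were beyond 100 kb. Only 9 (0.968%) lay within 1000 bp of a start, against 108 overlapping sites (3.35%). The strongest of the 9 were that of Il1rl1, 455 bp from its start, that of Ephb3, an ephrin receptor, 51 bp away (chr16:21211002-21211224), and that of Fam50b, 908 bp away (chr13:34825733-34825921). The p300 values were 8.81, 9.02, 7.53 and 7.48 at Ephb3, and 8.29 and 8.90 in WT with no DKO peak at Fam50b. Ephb3 had Brd3 at 7.47 and 6.44 in WT, and its site was 3 bp from H3K27ac.

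Isolated sites were not uniformly weak. Their strongest examples were picked after the values were seen. They lay in an intron of the cadherin Cdh18 (chr15:23382013-23382300), 4382 bp from the start of the Wnt inhibitor Apcdd1 and 172562 bp from that of Rps19-ps13. Cdh18 read 12.1, 11.6, 11.1 and 10.98, 2911 bp from the nearest WT H3K27ac peak, and had an H3K27ac peak of 3.94 in DKO replicate 1. Its CEBPB peaks were at 6.58 and 7.43 in WT, with none in either DKO list. Apcdd1 read 12.3, 13.0, 8.502 and 7.50 and Rps19-ps13 12.3, 9.25, 9.21 and 7.32, and neither had Brd3, CEBPB or H3K27ac in any of the 4 libraries. In the DKO lists p300 stayed at all 3.

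Several mesenchymal transcription factors had the start nearest to such a site, mostly at a distance. The nearest starts belonged to 786 genes, of which 334 (42.5%, and 17.2% of the 1944 genes nearest to overlapping sites) also had an overlapping site. Of 22 mesenchymal transcription factors 9 were the nearest gene of a non-overlapping site (12 of an overlapping site), against 3.54% and 8.74% of all 22232 protein-coding genes. Runx1, a RUNX factor, had 3 sites, with p300 at 0 and 2 of them in DKO. Tbx18, a T-box factor of mesenchyme, had 2 sites and no overlapping one, and neither of its sites had p300 in DKO. Prrx1, a limb mesenchyme homeobox factor, had 1 site 5984 bp from its start with p300 in both DKO lists. The site of Tcf4 lay 21039 bp away, those of Runx1 52338 to 360636 bp, those of Tbx18 96860 and 173047 bp, and those of Foxc2, Twist2, Runx2, Osr1 and Zeb2 113579, 124195, 187636, 205585 and 1320847 bp.

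Matrix and signaling genes had smaller shares than the mesenchymal transcription factors (40.9%). Of 24 collagen and matrix genes 5 (20.8%) had a non-overlapping site and 19 an overlapping one. Of 19 TGF-beta and YAP response genes 2 (10.5%) and 15 did, where all protein-coding genes had 3.54% and 8.74%. Tnc, the matrix glycoprotein tenascin C, had 2 sites, with Brd3 at 1 and 2 in WT and at 0 and 0 in DKO, and with H3K27ac at both in each DKO library. Ctgf, a secreted growth factor induced by TGF-beta and YAP, had 1 site 14221 bp from its start with p300 and CEBPB in all 4 libraries, Brd3 in WT only and H3K27ac in DKO only. None of 11 AP-1 genes, 11 annotated C/EBP family and target genes and 20 cytoskeleton genes was the nearest gene of a non-overlapping site, against 2, 3 and 12 for overlapping sites. The share over all protein-coding genes was 3.54%, so a count of 0 in lists this short has little weight.

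Over whole p300 lists, the share of peaks without H3K27ac of their own genotype was lower in both DKO lists. It was 28.1% and 29.5% in WT and 24.9% and 26.1% in DKO (28.8% ± 0.94 and 25.5% ± 0.84, SD, n = 2), a difference of −3.33 points. This is a description, since an exact two-sided permutation test of 2 against 2 libraries cannot give a p below 0.333. With the 2974 top peaks of each list the shares were 19.6%, 24.0%, 24.9% and 25.3%, which turned the direction. Peaks with no H3K27ac within 1000 bp made up 8.38% and 6.63% in WT and 7.53% and 7.49% in DKO.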

How the data were processed

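ChIP-seq peak lists (narrowPeak) from MEFs, ESCs and resting B cells were used, 64 in all. Per the labels and the study's methods, the authors trimmed reads with cutadapt 1.16, aligned them to mm9 with BWA, marked duplicates, removed reads in blacklisted regions and called peaks per library with MACS2 2.1.1.20160309. The deposited values are the fold enrichment of each peak (a ratio to the local background) and −log10 p and −log10 q. For MEFs 1 input library was listed per genotype, and which control entered each call was not given in the sources used here. Read counts and depth were not used, so the number of peaks stands in for depth and a missing peak is no measure of absence.

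Sites were compared by overlaps of at least 1 bp (Python 3.11.15, pandas 2.3.3). Counts of sites called per library, log2(count + 0.5), were fitted by limma 3.58.1 in R 4.3.3 over antibodies with a mean of at least 10 sites called, without p300 and H3K27ac, which the rule used. Fold enrichments were fitted by limma on the log2 scale over all sites called in the 4 libraries of an antibody, after centring each library on its median. Benjamini-Hochberg adjustment was used with a threshold of 0.05, and both fits were tested on simulated data. Strength weighting averaged the overlapping sites' share over the 5 strength classes with the non-overlapping sites' class sizes. Both strands of mm9 were scanned for motifs up to 100 bp from each summit, and genes and nearest protein-coding starts came from GENCODE vM1.

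The sites, gene lists and markers were chosen with earlier results of these data known. Named sites were the 6 strongest by mean WT −log10 q and the 3 strongest in each class of calls (p300 in both or neither DKO list, Brd3 or CEBPB in both WT lists, H3K27ac in both DKO lists, H3K27me3 in any list, CTCF in both WT ESC lists, promoter), on chromosomes 1 to 19 and X and off H1 peaks. The H3K27me3 class was empty. Alternatives changed the pseudocount, antibody filter, thresholds, overlap, distance, list length, centring, replicate block and replicates used.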

Additional observations from a re-analysis of the deposited data

Results flagged for a closer look

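The difference between site classes in Brd3 was singled out because its own test passed. Brd3 calls changed by −1.77 on the log2 scale more at non-overlapping than at overlapping p300 sites (SE 0.14, limma adjusted p = 3.72e-05, in the same direction in both DKO libraries), and what moved with it, the list length and the lower WT fold enrichment, stands beside it in the text above.

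Of the antibodies outside the fitted set, 4 are listed because a library called over 3 sites, a bar that takes no account of list length, and overlapping sites carried each at higher shares. OCT4 in ESCs was called at 5 and 5 sites in WT and 9 and 11 in DKO, in lists of 11140, 12627, 26742 and 30864 peaks, against 0.651%, 0.806%, 1.83% and 1.95% of overlapping sites. CTCF in ESCs was called at 8, 8, 9 and 10 sites, against 2.05%, 2.08%, 2.14% and 2.23%. SOX2 in ESCs was called at 4, 4, 4 and 5 sites, against 0.837%, 0.744%, 1.27% and 1.49%. ETS1 in resting B cells was called at 5 and 8 sites in WT and 0 and 2 in DKO, in lists of 4524, 4561, 1220 and 1098 peaks, against 1.95%, 1.77%, 0.775% and 0.744%.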

How the results depend on the processing

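Of 179 recomputed values, 156 were counted as unchanged, a label that differed by kind of value. Test results had to keep their side of the threshold, and could change sign where neither fit passed it. As such, the CEBPB change against overlapping sites turned to −0.017 with the p300 peaks of WT replicate 2. Counts had to stay close to the main count, medians to keep their sign, and shares to stay within the spread. Leaving out each library in turn, the Brd3 change against overlapping sites ran from −1.89 to −1.65 and that of CEBPB from 0.020 to 0.15. Each such fit leaves a genotype with a single library, so its p-values are not given. CEBPB sites higher in DKO ran from 26 to 41 and lower from 10 to 15 (699 to 1010 and 573 to 791 of all 4193), with the lowest counts without DKO replicate 2 (higher) and DKO replicate 1 (lower). With a mean of at least 1 site called, 4 antibodies passed in place of 2, among them Ikaros with 2, 2, 1 and 1 sites. With the top peaks of each list, added after seeing the data, the CEBPB count turned to 0.35. Without centring, the median log2 difference turned to −0.25 for Brd3, with 1 site lower, and to −0.48 for CEBPB, with 9 higher and 62 lower. The share of p300 peaks without H3K27ac turned to 3.295 points with the top peaks, to 0.00202 beyond 1000 bp and to 1.64 with the H3K27ac lists of the other genotype, which was added after seeing the data. p300 in DKO was at 32.0% and 38.5% of isolated sites and at 43.8% and 50.1% of sites with a p300 −log10 q of at least 5, and H3K27ac at 5.0% and 3.0% of isolated sites. In these cases the cause was not tested. Replicates share only a number (r of their deviations 0 for Brd3 and 0.001 for CEBPB). With the replicate block, the Brd3 count fell by 3.98 (adjusted p = 5.67e-05), the Brd3 change against overlapping sites had an adjusted p of 0.00571, and 1 of the 8 Brd3 sites became higher. Over all 5422 Brd3 sites the block gave 203 higher and 125 lower, and no centring 24 and 1013, in place of 50 and 30. Windows of 100 bp on either side of the summit, added after seeing the data, gave a Brd3 change of −1.26 and overlapping sites with the summit outside H3K27ac gave −1.15, both past the threshold.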

Other observations

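The same rule applied to the DKO lists gave 2005 p300 sites in both libraries, of which 395 (19.7%) overlapped no DKO H3K27ac peak and 300 of these were within 1000 bp of one. WT H3K27ac lay at 15.2% and 12.2% of the 395, against 19.7% and 20.9% for DKO H3K27ac at the WT-chosen sites. WT p300 lay at 90.6% and 82.3% of them, against 96.0% and 90.2% of the 1610 other DKO sites. Brd3 was at 13.9% and 13.2% in WT and at 0 and 0.759% in DKO, and CEBPB at 33.4% and 35.7% in WT and 16.2% and 15.9% in DKO. The 1610 other sites had Brd3 at 60.1% and 60.9% in WT and 10.9% and 15.0% in DKO, and CEBPB at 30.7% and 31.3% and at 14.0% and 15.1%.

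Of the 786 nearest genes, 669 had 1 non-overlapping site and 3 had at least 4, which were chosen after their values were seen. Lphn3, an adhesion G protein-coupled receptor, had 5 sites and no overlapping site, with p300 at 2 and 2 of them in DKO. Bnc2, a zinc finger protein, had 4 sites and 4 overlapping ones, with Brd3 at 2 and 2 of the non-overlapping sites in WT and at 1 and 1 in DKO. Spred2 had 4 sites, with p300 at 0 and 3 of them in the 2 DKO libraries.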
